A study of Mus musculus with 30 samples.

Results

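Transcripts of 5 genes for small membrane proteins induced by interferon, Ifi27, Ifi27l2a, Ifitm1, Ifitm2 and Ifitm3, were followed through 5 mouse tissues with and without Clpp, the proteolytic subunit of a protease of the mitochondrial matrix. They were chosen by symbol and make up 5 of the 17097 genes measured, and where several probe sets carried only that symbol, the one brightest on average across all 30 arrays stands for the gene. Ifi27 had 2 of them, with means of 8.91 and 8.50, of which the first was used, and the other members had 1 each. Transcripts were measured as log2 expression in ClpP KO mice and wild-type littermates, both on a C57BL/6 background, with 3 knockout and 3 wild-type arrays for each of testis, liver, skeletal muscle, brain and heart. The labels give neither the ages nor the construct of the knockout, and nothing says that replicates came from separate animals, so p-values measure only the spread between these samples, which may be technical.

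Interferons bind receptors at the cell surface and, through Janus kinases, STAT proteins and interferon regulatory factors, switch on a large set of antiviral genes. The Ifitm genes encode short membrane proteins of the plasma membrane and of endosomes that hinder the fusion of enveloped viruses with the cell. Ifitm3 acts mainly in endosomes and Ifitm1 mainly at the cell surface, while Ifitm2 is a close relative of Ifitm3. Ifi27 and Ifi27l2a belong to a separate family of small hydrophobic proteins, placed in mitochondrial or nuclear membranes in different studies, and mouse Ifi27l2a has been linked to the control of flavivirus infection in neurons.

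RefSeq's promoter table for GRCm38.p6 held windows for 3 of the 5 members, all Ifitm genes on chromosome 7. They are shown as the regulatory sequence at hand for an interferon-induced family, with the core letters of the interferon-stimulated response element marked. Ifi27 and Ifi27l2a had no window, and 3 genes allow no reading of the letters against the measured differences. Each sequence is given 5′ to 3′ on the strand of its gene, from 250 bases before the annotated start to 30 bases after it, and capitals mark GAAANNGAAA. The windows are chr7:140967826-140968105 on the + strand for Ifitm1, chr7:140955932-140956211 on the - strand for Ifitm2 and chr7:141010715-141010994 on the - strand for Ifitm3.
Ifitm1: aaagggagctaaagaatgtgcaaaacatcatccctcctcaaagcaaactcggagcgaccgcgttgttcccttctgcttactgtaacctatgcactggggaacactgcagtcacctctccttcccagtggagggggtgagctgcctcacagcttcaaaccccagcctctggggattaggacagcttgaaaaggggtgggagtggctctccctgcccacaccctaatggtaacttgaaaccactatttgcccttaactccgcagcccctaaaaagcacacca
Ifitm2: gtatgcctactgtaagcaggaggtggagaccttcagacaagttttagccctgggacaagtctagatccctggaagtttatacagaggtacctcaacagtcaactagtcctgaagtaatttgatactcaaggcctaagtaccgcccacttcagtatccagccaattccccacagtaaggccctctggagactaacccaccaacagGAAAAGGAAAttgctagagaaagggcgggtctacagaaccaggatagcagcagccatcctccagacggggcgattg
Ifitm3: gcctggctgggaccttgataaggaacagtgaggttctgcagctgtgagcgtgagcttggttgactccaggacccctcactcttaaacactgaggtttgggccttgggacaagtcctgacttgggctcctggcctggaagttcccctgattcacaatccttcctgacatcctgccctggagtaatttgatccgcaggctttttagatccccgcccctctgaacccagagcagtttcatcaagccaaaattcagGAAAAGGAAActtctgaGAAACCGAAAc
The motif was searched on both strands of the full windows of 300 bases. Ifitm2 had 1 match, from base -46 to -37 relative to the start, and Ifitm3 had 2, from base 3 to 12 and from base 20 to 29. Ifitm1 had no match in this window. The motif was present in 3.44% of 32851 windows of all genes. Counted by gene, it was present in 10 of the 22 other interferon-stimulated genes described below that had a window (45.5%), and in 1079 of 27025 genes with a window (3.99%). TTCNNNGAA, the letters of the gamma-activated site, matched once, in Ifitm3 from base 14 to 22, where it overlaps the second of the other matches, and occurred in 8.3% of all windows. These matches describe letters and not bound sites.

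The arrays were first set against their labels. Clpp lay below 4 on the log2 scale on all knockout arrays, with a highest value of 3.99, and its lowest wild-type value was 5.88. Hepatocyte genes averaged 13.2 to 13.3 on liver arrays and muscle fibre genes 12.9 to 13.1 on muscle arrays. The list of brain genes averaged 11.2 on brain wild type 3 and 9.99 to 10.2 on the other brain arrays. Single arrays stood apart. Testis wild type 3 carried epididymal RNA, with a mean of 10.96 for 3 epididymal genes, against 2.63 to 2.67 on knockout testis arrays and 2.999 and 2.89 on the other wild-type ones. Muscle wild type 1 carried RNA of spermatid genes, with Prm1 at 8.11. Prm1 was 3.02 to 3.26 on knockout muscle arrays and 3.13 and 2.93 on the other wild-type ones. Muscle knockout 1 had Alb, a hepatocyte gene, at 7.30. Alb was 2.95 and 3.78 on the other knockout and 2.81 to 2.96 on the wild-type muscle arrays. Hp, at 12.7 to 13.2 on liver arrays, did not follow Alb. It read 5.17 on muscle knockout 1, against 4.51 and 6.79 on the other knockout and 7.66 to 8.26 on the wild-type muscle arrays. Brain wild type 3 had 9.11 for Nrgn, a gene of forebrain neurons, against 3.83 to 4.80 in knockout brain and 3.64 and 3.68 on the other wild-type brain arrays. In heart, Myl7, an atrial light chain, stood at 3.59, 12.63 and 12.79 in knockout replicates 1 to 3, against 7.42, 3.81 and 2.95 in wild-type replicates 1 to 3, and more atrial tissue cannot be told apart from more Myl7 RNA per cell. In heart, Alb stood at 8.33, 6.91 and 5.03 in knockout replicates 1 to 3, against 3.40, 5.53 and 3.19 in wild-type hearts. The mean of the hepatocyte genes there was 5.19, 4.14 and 3.51, against 3.18, 3.66 and 3.20. Hp ran the other way from Alb in knockout hearts, at 4.02, 5.53 and 6.92, against 3.72, 3.93 and 4.63. Whether these muscle and heart arrays held hepatocyte RNA was not tested. These markers were picked after their values had been seen.

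Ifi27 was the member with the widest response: its knockout arrays lay above the wild-type arrays in all 5 tissues, and it was called higher in 4 of them. It read 10.78, 10.76 and 10.77 in knockout heart, against 7.99, 8.08 and 8.16 in wild-type heart. In testis it read 8.86, 8.81 and 8.57 in knockout arrays, against 6.84, 6.92 and 7.01 in wild-type arrays. On the 3 knockout hearts, which differed in Myl7 and in Alb, the other probe set of Ifi27 read 10.62, 10.36 and 10.56. The part of atrial tissue or of RNA from outside the heart in the heart difference was not tested. In brain the knockout arrays gave 9.52, 9.40 and 9.38 and the wild-type arrays 7.92, 8.05 and 7.70. In liver the knockout arrays gave 10.24, 10.38 and 10.85 and the wild-type arrays 9.57, 9.54 and 9.60. In muscle the gap was smallest, with 8.81, 8.66 and 8.87 in knockout arrays, against 8.36, 8.44 and 8.46 in wild-type arrays. No knockout value in any tissue reached down to a wild-type value.

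**Figure D1:**
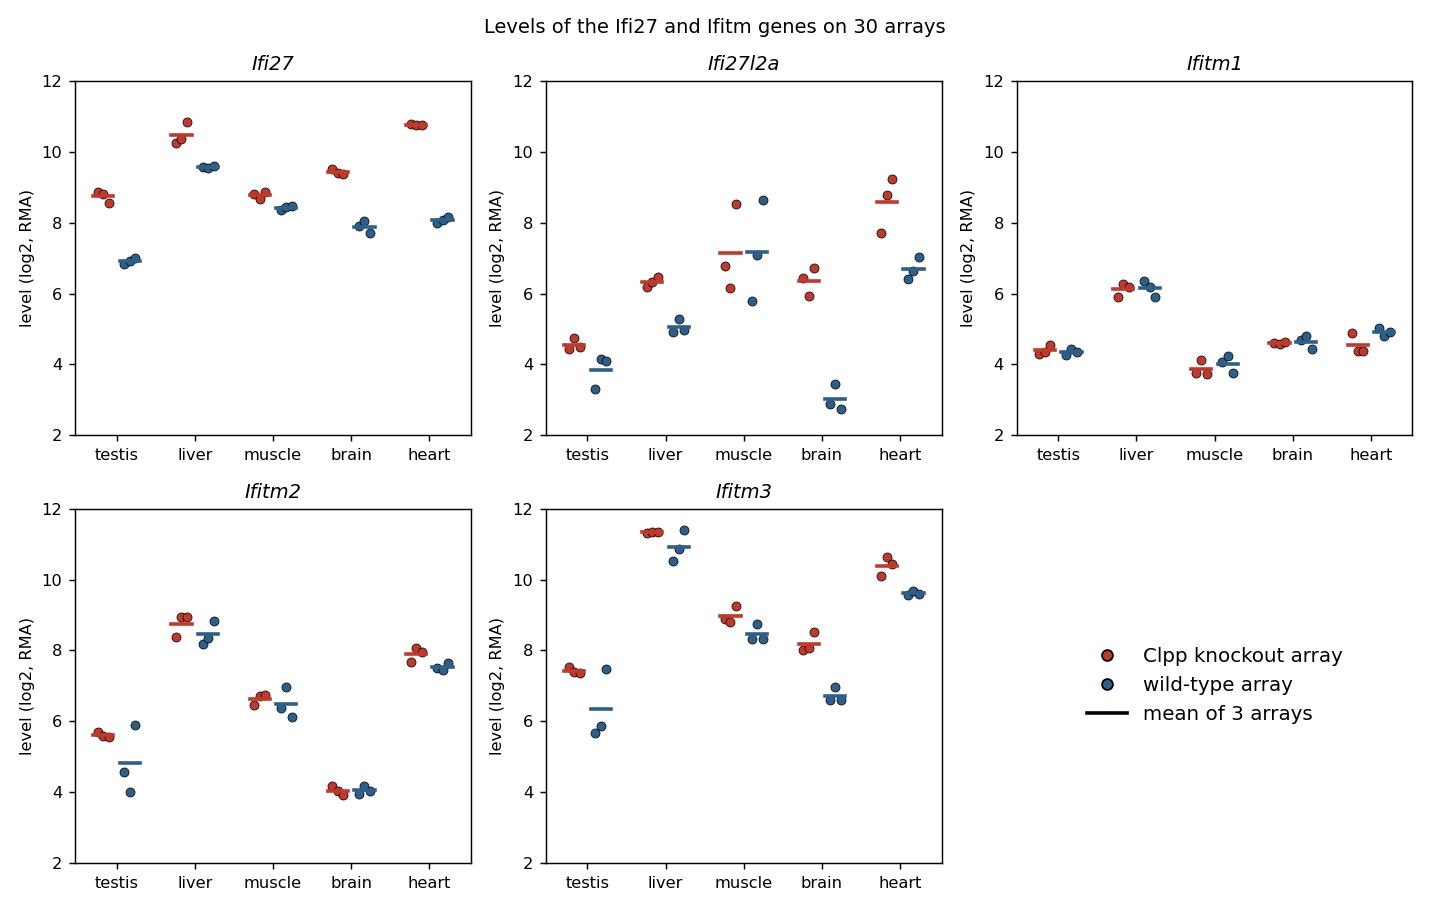
Log2 level of each of the 5 genes (vertical axis) on each array of testis, liver, muscle, brain and heart, knockout in red to the left of wild type in blue, with bars at the mean of 3 arrays. Ifi27 is higher on all knockout arrays in every tissue, Ifitm1 shows no such gap, and 1 wild-type testis array stands high for Ifitm2 (5.90) and Ifitm3 (7.47).

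Knockout minus wild type for Ifi27 was 2.69 ± 0.12 in heart (log2, SE of the limma fit, n = 3 arrays per group), a 6.45-fold difference, with an adjusted p of 9.74e-14 over all genes. It was 1.82 ± 0.12 in testis (limma adjusted p = 1.62e-12), 1.55 ± 0.12 in brain (1.54e-08) and 0.92 ± 0.12 in liver (3.45e-05). With each tissue fitted alone the liver call was lost (limma adjusted p = 0.115). RNA quality, read as the log2 difference between 3′ and 5′ control probe sets, moved with genotype in testis and liver. For Gapdh it was 0.506 to 0.574 in knockout testis, against 0.862 to 1.17 in wild-type testis, and for actin it was 1.14 to 1.30 in knockout testis, against 1.39 to 2.03 in wild-type testis. In liver actin gave 1.79 to 2.39 in knockout arrays, against 1.67 to 1.77 in wild-type arrays, while Gapdh overlapped, and both overlapped in muscle, brain and heart. The part of RNA quality in the testis and liver differences of the members was not tested. In muscle the difference was 0.36 ± 0.12, with a limma adjusted p of 0.162, and did not pass the threshold of 0.05. Averaged over the 5 tissues it was 1.47 ± 0.05 (limma adjusted p = 9.57e-16). The family was picked with earlier results of these data known, so these p-values describe the members and are no independent support. The other probe set of Ifi27 gave 2.63 in heart, 1.76 in testis, 1.37 in brain, 0.79 in liver and 0.32 in muscle, the same order of tissues.

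The size of the Ifi27 response differed between tissues. The F test over 5 tissues gave a limma adjusted p of 2.33e-10, a test that 52.3% of all genes passed. Among liver, muscle, brain and heart alone the adjusted p was 3.03e-08, in a test that 1.66% of all genes passed. Against the mean of the other 4 tissues, the knockout effect was larger in heart by 1.53 ± 0.14 (limma adjusted p = 6.01e-07). By the same measure it was 0.44 ± 0.14 larger in testis (0.00667), -0.69 ± 0.14 in liver (0.00126) and -1.39 ± 0.14 in muscle (6.26e-07). In brain it was 0.10 ± 0.14, which did not pass (limma adjusted p = 0.722). These tests against the other 4 tissues called 14.8% of all genes in heart, 55.5% in testis, 14.3% in liver, 15.8% in muscle and 10.4% in brain. The testis value of Ifi27 was at or above that of 67.4% of all genes, so that call is not particular to it.

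The order of tissues by Ifi27 level was as follows. In knockout mice heart, with a mean of 10.77, and liver, with 10.49, came first with overlapping arrays, ahead of brain at 9.44 and of muscle and testis at 8.78 and 8.75, which overlapped. In wild-type mice liver led with 9.57, followed by muscle at 8.42, heart at 8.08 and brain at 7.89, the last pair overlapping, and testis at 6.93. The distance between the highest and lowest tissue means was 2.02 in knockout and 2.65 in wild-type mice.

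Ifi27l2a, the relative of Ifi27, had its largest difference in brain, where wild-type arrays were near the low end of the scale. It read 6.44, 5.94 and 6.72 in knockout brain, against 2.89, 3.44 and 2.74 in wild-type brain. Heart gave 7.70, 8.78 and 9.24 in knockout arrays, against 6.40, 6.64 and 7.03 in wild-type arrays. In brain and in heart the groups did not overlap, and the lowest of the knockout hearts was replicate 1, the array without atrial Myl7. Liver gave 6.17, 6.33 and 6.45 in knockout arrays, against 4.90, 5.28 and 4.97 in wild-type arrays. Testis gave 4.44, 4.76 and 4.48 in knockout arrays, against 3.32, 4.15 and 4.09 in wild-type arrays. The groups were separate in both, though in testis by less than the spread of the wild-type arrays.

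Muscle differed from the other tissues in how far arrays of 1 genotype spread. Ifi27l2a read 6.77, 6.15 and 8.54 in knockout muscle, against 5.80, 7.08 and 8.65 in wild-type muscle. Each genotype covered more than 2 log2 units, and the groups overlapped fully.

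Only brain passed the threshold for Ifi27l2a, with a difference of 3.34 ± 0.52 (limma adjusted p = 0.000953), a 10.2-fold difference. Wild-type brain values were near the low end of the scale, so this fold depends on the floor of the array. The difference was 1.88 ± 0.52 in heart (limma adjusted p = 0.0582), 1.27 ± 0.52 in liver (0.261), 0.71 ± 0.52 in testis (0.274) and -0.02 ± 0.52 in muscle (0.998). The SE is pooled over all 10 groups, so the spread of the muscle arrays widens it for every tissue. With each tissue fitted alone, the limma adjusted p was 0.0246 in liver and 0.0346 in testis. Single muscle arrays moved the heart call through that pooled spread: the heart difference passed without muscle knockout 2 (limma adjusted p = 0.0427), muscle knockout 3 (0.0249), muscle wild type 1 (0.0234) or muscle wild type 3 (0.0193). With heart knockout 1 left out the heart difference was 2.32 (limma adjusted p = 0.0144).

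Averaged over the 5 tissues Ifi27l2a was higher by 1.43 ± 0.23 (limma adjusted p = 3.1e-05). Its response differed between the 5 tissues (adjusted p = 0.00444, limma F test). Among the 4 tissues without testis the adjusted p was 0.0656, and it was 0.00704 without muscle wild type 1, 0.00734 without muscle knockout 3 and 0.026 without heart knockout 1. Brain exceeded the mean of the other tissues by 2.39 ± 0.58 (limma adjusted p = 0.00938), and muscle stood at -1.82 ± 0.58 by the same measure (0.0355). Of all genes 10.4% were called by this measure in brain and 15.8% in muscle. In order of level, knockout heart (mean 8.57), muscle (7.15), brain (6.37) and liver (6.32) each overlapped the next, above testis (4.56). In wild-type mice muscle (7.18) and heart (6.69) overlapped, followed by liver (5.05), testis (3.85) and brain (3.02), the last 2 overlapping.

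**Figure D2:**
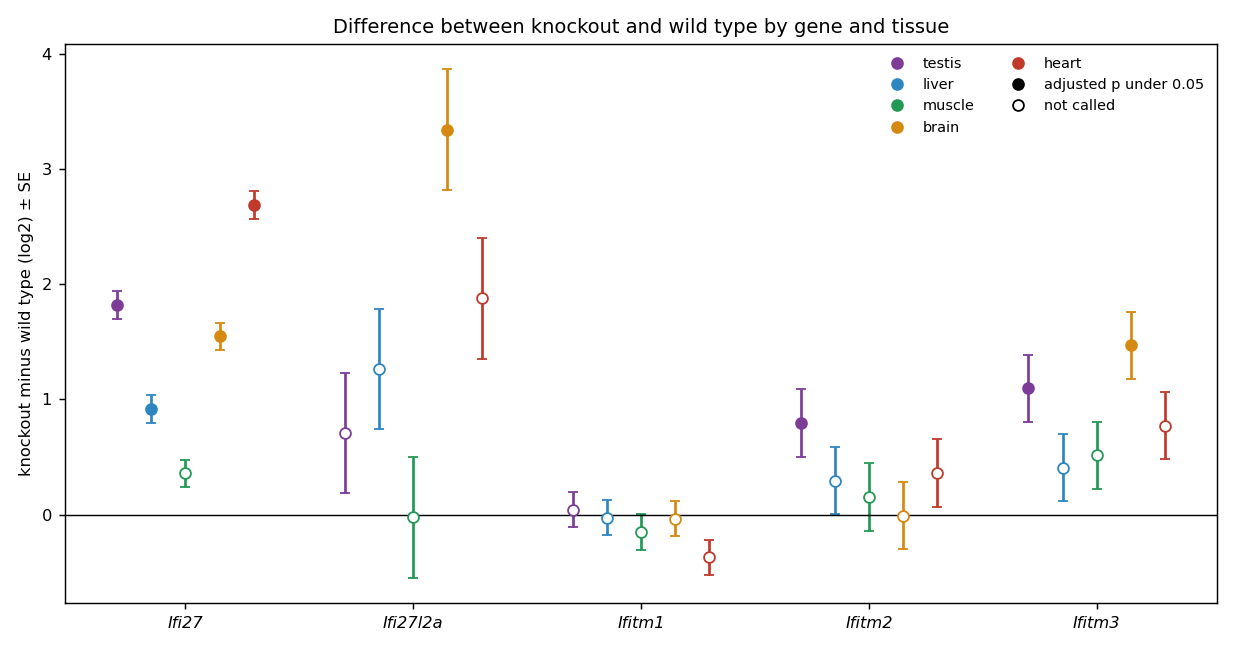
Knockout minus wild type (log2, vertical axis) with the SE of the fit as error bars for each gene and tissue, filled where the adjusted p was under 0.05 and open otherwise. Ifi27l2a in brain (3.34) and Ifi27 in heart (2.69) are the largest differences, and the 5 values of Ifitm1 lie between -0.37 and 0.04.

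Ifitm3, the endosomal restriction factor, was higher in knockout brain and testis. It read 8.001, 8.07 and 8.51 in knockout brain, against 6.61, 6.96 and 6.60 in wild-type brain. In testis it read 7.54, 7.39 and 7.36 in knockout arrays, against 5.66, 5.87 and 7.47 in wild-type arrays. The brain groups were apart, whereas in testis wild type 3, the array with epididymal RNA, lay within the knockout range. In heart it read 10.10, 10.63 and 10.43 in knockout arrays, against 9.57, 9.67 and 9.60 in wild-type arrays. In muscle it read 8.89, 8.81 and 9.25 in knockout arrays, against 8.33, 8.75 and 8.32 in wild-type arrays. These groups did not overlap either. In liver, where the gene is brightest, it read 11.32, 11.35 and 11.33 in knockout arrays, against 10.54, 10.86 and 11.39 in wild-type arrays, and 1 wild-type array exceeded all knockout arrays.

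The difference in Ifitm3 was 1.47 ± 0.29 in brain (limma adjusted p = 0.0151), a 2.77-fold difference, and 1.10 ± 0.29 in testis (0.00222). The testis call was lost with each tissue fitted alone (limma adjusted p = 0.0687). It was 0.77 ± 0.29 in heart (limma adjusted p = 0.197), 0.52 ± 0.29 in muscle (0.496) and 0.41 ± 0.29 in liver (0.65), none of which passed. Without testis wild type 3 the testis difference was 1.66 (limma adjusted p = 1.44e-07). That array also widened the pooled spread: without it the brain adjusted p was 3.76e-05, and the heart difference of 0.77 passed with 0.0201. The brain call was lost without brain wild type 3 (1.41, limma adjusted p = 0.0684) or brain knockout 3 (1.31, 0.134). With testis wild type 3, muscle wild type 1, brain wild type 3 and heart knockouts 2 and 3 left out together, an alternative of 5 arrays added after the data were seen, the brain difference was 1.41 (limma adjusted p = 0.000651) and the heart difference 0.49 (0.554). Over the 5 tissues Ifitm3 averaged 0.85 ± 0.13 higher in knockout mice (limma adjusted p = 1.39e-05), and the F test between the 5 tissues gave 0.154 with all arrays and 0.000521 without testis wild type 3.

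Ifitm2 was called in testis alone, where Ifitm3 was called too. It read 5.70, 5.59 and 5.56 in knockout testis, against 4.58, 3.99 and 5.90 in wild-type testis. The wild-type array with epididymal RNA was again the high one and lay above all knockout arrays. The difference was 0.79 ± 0.29 (limma adjusted p = 0.0224), and it was 1.33 (1.16e-05) without that array. The call was lost without testis knockout 1 (0.75, limma adjusted p = 0.0611), testis wild type 1 (0.67, 0.0916) or testis wild type 2 (0.38, 0.267), and with testis fitted alone (limma adjusted p = 0.163). In brain Ifitm2 read 4.17, 4.02 and 3.93 in knockout arrays, against 3.96, 4.18 and 4.02 in wild-type arrays. There the groups overlapped fully, in the tissue in which Ifitm3 rose.

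In the other tissues Ifitm2 did not pass. It read 7.67, 8.06 and 7.96 in knockout heart, against 7.52, 7.46 and 7.63 in wild-type heart, with a difference of 0.36 ± 0.29 (limma adjusted p = 0.692) and no overlap. It read 8.37, 8.95 and 8.94 in knockout liver, against 8.18, 8.35 and 8.84 in wild-type liver, and the difference was 0.29 ± 0.29 (limma adjusted p = 0.809). Muscle gave 6.45, 6.71 and 6.74 in knockout arrays, against 6.36, 6.95 and 6.12 in wild-type arrays, and the difference was 0.15 ± 0.29 (limma adjusted p = 0.926). Liver and muscle arrays overlapped. Averaged over the 5 tissues Ifitm2 differed by 0.32 ± 0.13 (limma adjusted p = 0.0631), which became 0.43 (0.000599) without testis wild type 3, 0.36 (0.04) without liver knockout 1, 0.36 (0.039) without liver wild type 3 and 0.37 (0.031) without muscle wild type 2. The F test between the 5 tissues gave an adjusted p of 0.482, and 0.00447 without testis wild type 3.

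Ifitm2 and Ifitm3 kept nearly 1 order of tissues. Both were highest in liver, then heart, then muscle in either genotype, with no overlap between those neighbours. Mean Ifitm3 was 11.34 in knockout liver and 7.43 in knockout testis, the lowest of the knockout tissues, against 10.93 in wild-type liver and 6.33 in wild-type testis. Ifitm2 was lowest in brain, at 4.04 in knockout and 4.05 in wild-type arrays. Across the 30 arrays, deviations of the 2 genes from their group means correlated with an r of 0.815, and with 0.623 over the 24 arrays without testis. The 2 measures share arrays and normalization, and the correlation is given as a description.

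Ifitm1, the cell-surface member, was not called in any tissue, and heart alone had an unadjusted p under 0.05 (0.023, limma). It read 4.88, 4.39 and 4.36 in knockout heart, against 5.04, 4.80 and 4.92 in wild-type heart, a difference of -0.37 ± 0.15 (limma adjusted p = 0.254, 95% interval -0.69 to -0.06). Heart knockout 1 lay within the wild-type range, and without it the difference was -0.54 (limma adjusted p = 0.047). It read 5.90, 6.26 and 6.19 in knockout liver, against 6.35, 6.19 and 5.89 in wild-type liver. The liver groups overlapped, with a difference of -0.03 ± 0.15 (95% interval -0.34 to 0.29). Testis, brain and muscle differences were 0.04, -0.03 and -0.15, with intervals from -0.28 to 0.36, -0.35 to 0.28 and -0.47 to 0.17. Knockout values ranged from 4.29 to 4.54 in testis, 4.58 to 4.64 in brain and 3.72 to 4.12 in muscle, against 4.28 to 4.43, 4.44 to 4.80 and 3.75 to 4.23 in the same wild-type tissues. Levels outside liver were near the low end of the scale. Liver had the highest Ifitm1 mean, 6.12 in knockout and 6.14 in wild-type mice, clear of every other tissue.

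Counted over the 5 members, 3 were called higher in knockout brain, where 0.234% of all 17097 genes were called higher. In heart and in liver 1 member was called higher, Ifi27, against 1.11% and 0.912% of all genes. In muscle no member was called by limma, against 0.778% of all genes, and 1 member, Ifi27, had an unadjusted p under 0.05. In testis 3 members were called higher, Ifi27, Ifitm2 and Ifitm3, but so were 32.8% of all genes, so that count is not particular to them. Over the mean of 5 tissues Ifi27, Ifi27l2a and Ifitm3 were called higher, as were 17.1% of all genes, and the same 3 were called over the 4 tissues without testis, with 1.47% of all genes. No member was called lower in any of these. Knockout arrays lay above all wild-type arrays for 4 members in heart, 3 in brain and 2 each in liver, muscle and testis, which held for 7.73%, 9.18%, 7.9%, 9.36% and 35.3% of all genes.

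In testis the tissue itself differed between the genotypes, and values in bulk RNA cannot tell fewer cells of a type from less RNA per cell. The mean of 8 spermatid genes, among them the protamines, was 7.10 to 8.12 on knockout arrays, against 11.86 to 12.30 on wild-type arrays, and all 8 fell. All 8 Sertoli and all 6 Leydig genes rose, with list means of 8.49 to 8.80 and 9.83 to 10.14 in knockout testis, against 6.72 to 7.05 and 8.28 to 8.48 in wild-type testis. Of 11 macrophage genes 8 rose and 1 fell, and the list mean was 5.79 to 6.08 in knockout arrays, against 4.99 to 5.30 in wild-type arrays. The median difference in testis was 0.69 over genes averaging 6 or more on the 30 arrays, close to that of Ifitm2 (0.79). The part of these shifts in the testis values of the members was not tested.

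Outside testis the cell type markers called were Fcgr1 and Cd79b in heart and Cyp17a1 and Alas2 in liver. Of all genes 2.42%, 1.54%, 0.415% and 2.18% were called in liver, muscle, brain and heart. Of 11 macrophage and microglia genes none was called in brain, liver or muscle and 1 rose in heart, where 6 were higher at an unadjusted p under 0.05, as were 2 in brain. Their mean was 5.18 to 5.27 in knockout brain, against 4.79 to 5.16 in wild-type brain, and 6.15 to 6.83 in knockout heart, against 5.79 to 6.08 in wild-type heart. No gene of the 10 endothelial or 6 fibroblast markers was called by limma in the 4 tissues, and at an unadjusted p under 0.05 heart had 1 endothelial gene higher and 3 lower and 1 fibroblast gene higher, and muscle had 2 endothelial genes lower. Of 3 B cell genes Cd79b, a subunit of the B cell receptor, rose in heart by 0.69 ± 0.17 (limma adjusted p = 0.0258), and is named after its value was seen. The B cell list averaged 3.13 to 3.71 in knockout heart, against 2.95 to 3.08 in wild-type heart. Of 7 T and NK cell genes none was called in heart by limma, and 4 were higher at an unadjusted p under 0.05. Their mean was 3.22 to 3.38 in knockout heart, against 3.01 to 3.10 in wild-type heart, with all 7 genes under 4 on every heart array. The 5 hepatocyte genes averaged 3.51 to 5.19 in knockout heart, against 3.18 to 3.66 in wild-type heart, and 2.90 to 4.66 in knockout muscle, against 2.71 to 2.83 in wild-type muscle. In liver Cyp17a1, on the Leydig list, rose by 1.93 ± 0.36 (limma adjusted p = 0.00228). Alas2, on the red cell list, fell there by 1.47 ± 0.22 (limma adjusted p = 0.000144). Both are named after their values were seen. The 3 red cell genes averaged 7.31 to 7.48 in knockout liver, against 7.79 to 7.95 in wild-type liver. The part of these lists in the heart, brain, muscle and liver differences was not tested.

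**Figure D3:**
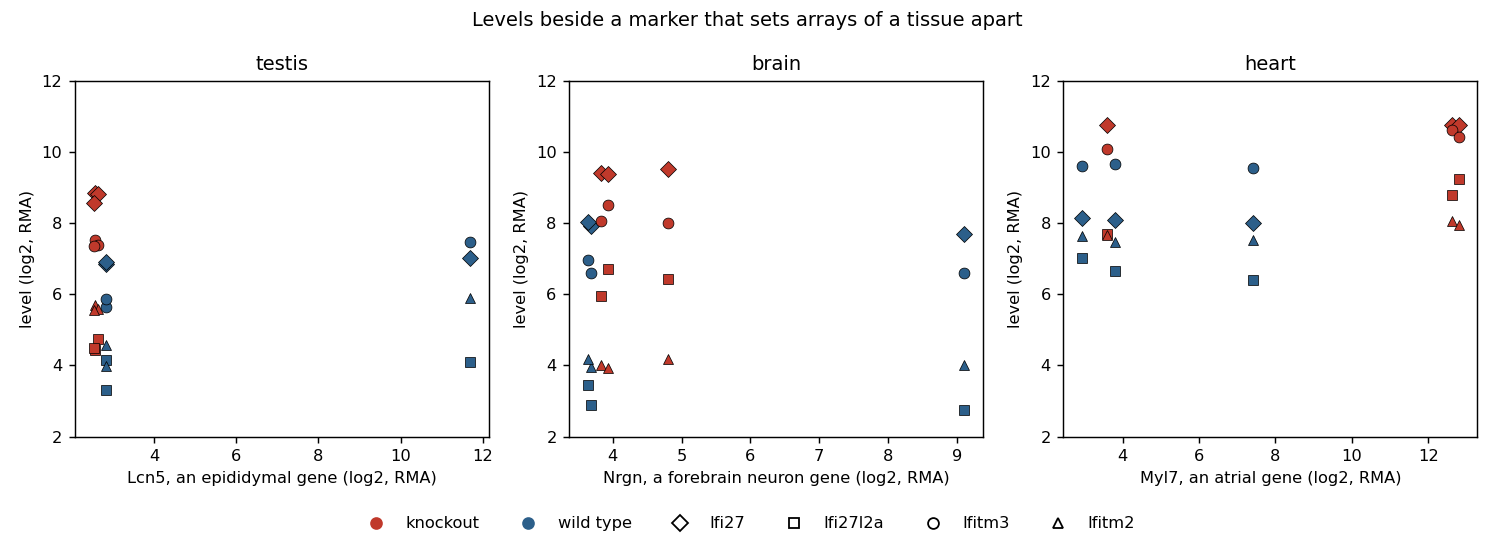
Log2 levels of 4 members (vertical axis) against the log2 level of a marker that sets arrays of that tissue apart, for the 6 arrays each of testis, brain and heart, knockout in red and wild type in blue. The testis array with Lcn5 at 11.70 has high Ifitm2 and Ifitm3 but not Ifi27. The brain array with Nrgn at 9.11 is the lowest wild-type one for Ifi27 (7.70), Ifi27l2a (2.74) and Ifitm3 (6.60). For Ifitm2 it lies between the other wild-type ones. Knockout hearts, with Myl7 from 3.59 to 12.79, read 10.76 to 10.78 for Ifi27.

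The responses of Ifi27, and that of Ifi27l2a in brain, were of like size without the arrays that stood apart. Without testis wild type 3, Ifi27 differed by 1.87 in testis, and without brain wild type 3 it differed by 1.45 in brain and Ifi27l2a by 3.20 (limma adjusted p = 0.00795). With only heart knockout 1 kept in its group, Ifi27 differed by 2.70 in heart (limma adjusted p = 1.77e-09), assuming that a lone array varies like the other groups. That array had the highest Alb of the hearts, and without it the difference was 2.69 (limma adjusted p = 1.65e-12). Without muscle knockout 1, Ifi27 differed by 0.34 in muscle (limma adjusted p = 0.316) and Ifi27l2a by 0.17 (0.981). With the 5 arrays named for epididymal, spermatid, forebrain or atrial genes left out, Ifi27l2a differed by 1.002 in heart, against 1.88 with all arrays.

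Many other interferon-stimulated genes rose in liver, muscle, brain and heart, while testis was mixed. Of 38 interferon-stimulated genes listed beside the members 32 were measured and tested here. In heart 19 of the 32 rose and none fell, with a median difference of 0.90. In muscle 17, in liver 15 and in brain 13 rose and none fell, with medians of 0.67, 0.73 and 0.65. Of all genes 1.11% were called higher in heart, 0.778% in muscle, 0.912% in liver and 0.234% in brain. With each tissue fitted alone 6 were called higher in muscle, 7 in liver and 8 in brain. Among these 4 tissues 1 gene, in liver, was lower at an unadjusted p under 0.05. The median over all 17097 genes lay between -0.01 and 0.02 in each tissue. In testis 15 rose and 3 fell, with a median of 0.37, where 32.8% of all genes were called higher and 23.4% lower, and where genes averaging 6 or more had a median of 0.69. Of the 32 genes 16 were under 4 on all 6 testis arrays. With those 5 arrays left out, 13 rose in heart, 12 in muscle, 15 in liver, 11 in brain and 13 in testis, and with muscle knockout 1 left out as well, also an alternative added after the data were seen, 9 rose in muscle.

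Ifit1 was among the 3 largest called differences in heart, brain, liver and muscle. In heart Usp18, a protease that restrains the interferon response, rose by 4.06 ± 0.19, Ifit1, which binds viral RNA, by 3.86 ± 0.19 and Ifit3 by 3.14 ± 0.23 (limma adjusted p = 1.92e-13, 3.65e-13 and 1.56e-09). In brain Ifit1 rose by 2.73, Ifit3 by 2.46 and Rtp4 by 2.39. Ifi27l2a, at 3.34, had a larger difference in brain than any of the 32. In liver Oas1g, an oligoadenylate synthetase, rose by 2.24, Usp18 by 2.03 and Ifit1 by 1.83. In muscle Ifit1 rose by 2.23, Ifit3 by 1.96 and Usp18 by 1.88. There the 5 members lay between -0.15 and 0.52, below the list's median of 0.67. In testis Xaf1, a promoter of cell death, rose by 1.79 and Rtp4 by 1.55, both less than Ifi27 (1.82), while Dhx58, a regulator of RNA sensing, fell by 2.03.

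**Figure D4:**
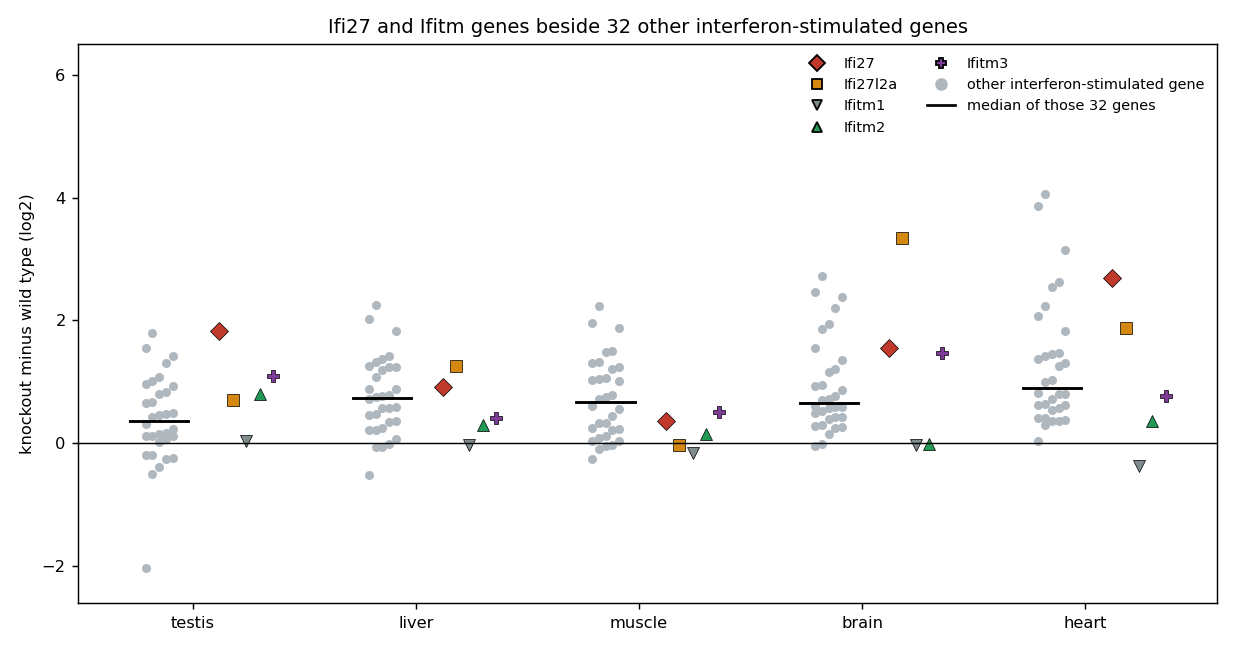
Knockout minus wild type (log2, vertical axis) in each tissue for 32 other interferon-stimulated genes as grey points with their median as a bar, and for the 5 members as coloured symbols. Ifi27l2a (3.34) is above all of the grey points in brain and Ifi27 (1.82) above all in testis, Ifitm1 (-0.37) is below all in heart, and Ifitm1 lies below the median in each tissue.

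Outside testis the only upstream genes called were Irf7 and Irf9. Of 9 measured interferon ligands and receptors none was called in liver, muscle, brain or heart by limma. Of all genes 2.42%, 1.54%, 0.415% and 2.18% were called in these tissues, so the absence is not particular to the 9. At an unadjusted p under 0.05 there were 2 higher in liver, 1 lower in muscle and 1 lower in brain. The ligands Ifnb1, Ifna4 and Ifng had means between 2.41 and 2.76 in knockout and between 2.37 and 2.68 in wild-type tissues, near the lowest values of the arrays. In testis 4 receptor genes rose, Ifnar1, Ifnar2, Ifngr1 and, by the most, Il10rb (2.06 ± 0.16, limma adjusted p = 3.1e-11), 4 of 9 in a tissue where 32.8% of all genes were called higher. Among 11 measured genes of signal transduction, Irf7, the transcription factor that amplifies the type I response, rose in heart (2.62 ± 0.20), liver (1.36), muscle (1.32) and brain (0.93, limma adjusted p = 0.0283). Irf9, a subunit of the STAT complex that binds the response element, rose in heart (1.46 ± 0.15). That made 1 of 11 in liver, muscle and brain and 2 of 11 in heart. Of all genes 0.912%, 0.778%, 0.234% and 1.11% were called higher in these tissues. In testis 7 of the 11 rose and 1 fell, beside 32.8% and 23.4% of all genes, with Jak1 the largest at 1.99. Irf7 and Irf9 are also on the list of interferon-stimulated genes.

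Relatives of the members were mostly at the low end of the scale. Ifi27l2b, the neighbour and near copy of Ifi27l2a, rose in liver only, with means of 5.17 in knockout and 4.12 in wild-type livers (1.04 ± 0.26, limma adjusted p = 0.0248). Ifitm7 fell in testis by 0.54 (limma adjusted p = 0.000358), between means of 2.42 in knockout and 2.96 in wild-type arrays. Ifitm6 stayed between 2.65 and 3.09 in all group means, and Ifitm10 was above 4 only in brain, with means of 6.28 in knockout and 6.03 in wild-type arrays. Neither was called.

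Genes whose proteins bind or modify Ifitm3 or human IFI27 were not called outside testis. None of 7 was called by limma in liver, muscle, brain or heart, and 1 was lower in heart at an unadjusted p under 0.05. Of all genes 2.42%, 1.54%, 0.415% and 2.18% were called in these tissues, so the absence is not particular to the 7. In testis Nedd4, a ubiquitin ligase for Ifitm3, rose by 1.78, Setd7, a methyltransferase, by 1.39, Zmpste24, a membrane protease, by 1.30 and Vapa, an endoplasmic reticulum protein, by 1.21. There Zdhhc20, a palmitoyltransferase, fell by 0.69 and Nr4a1, a nuclear receptor, fell by 2.84. Skp2, of a ubiquitin ligase, differed by 0.11 (limma adjusted p = 0.642). Thus 4 of the 7 rose and 2 fell in testis, where 32.8% of all genes were called higher and 23.4% lower.

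Genes beside the members on the chromosome were read in the same fit. Around the Ifitm cluster on chromosome 7 the measured neighbours were Cox8b, Nlrp6 and Pgghg on one side and B4galnt4, Sigirr and Ano9 on the other. In testis B4galnt4 fell by 2.07 and Sigirr by 1.16, and in muscle Ano9 differed by 0.53 ± 0.11 (limma adjusted p = 0.014). No neighbour of this cluster was called in liver, brain or heart. Beside Ifi27 and Ifi27l2a on chromosome 12, Otub2 fell by 2.76 and Asb2 rose by 0.43 in testis, Serpina6 rose by 0.55 in liver (limma adjusted p = 0.0145), and Ddx24, Ppp4r4 and Serpina10 were not called in any tissue. No neighbour was called in brain or heart. Of all genes 0.415% were called in brain, 2.18% in heart, 2.42% in liver and 1.54% in muscle, against 56.2% in testis. The absence in brain and heart is therefore not particular to the neighbours.

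The genes most like each member were taken by the correlation over 30 arrays after centring on the tissue mean, among 5168 genes with a mean of at least 6. For Ifi27 they were Rnf213, an interferon-induced ubiquitin ligase (r = 0.906), Gclm, of glutathione synthesis (0.887), and H2-K1, a class I histocompatibility gene (0.884). For Ifi27l2a they were Rtp4 (0.763), Rnf213 (0.76) and the complement gene C4b (0.731). For Ifitm3 they were Phf20l1 (0.908), H2-K1 (0.884) and H2-D1 (0.867), which stayed at 0.871, 0.898 and 0.826 over the 24 arrays without testis. For Ifitm2 they were Sat1, an acetylase of polyamines (0.878), St6gal1, a sialyltransferase (0.871), and Tmem160 (0.825), which dropped to 0.647, 0.705 and 0.389 without testis. For Ifitm1 they were Ptprb, an endothelial phosphatase (0.779), Stom (0.684) and Nkain1 (0.678). The arrays share tissue, genotype and normalization, so these values rank likeness and no more.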

How the data were processed

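The deposited table holds log2 expression values per probe set of 30 Affymetrix arrays, made by the authors with RMA in R 2.14.0, per the submitters' processing notes; whether all arrays were normalized together is not given in the sources used here. Nothing was normalized again. Of 45141 probe sets 28898 had 1 symbol, giving 17097 genes. Array medians ran from 3.24 to 3.38. Precision is limited by having 3 arrays per group.

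A single limma 3.58.1 fit (R 4.3.3) of 10 group means, with 20 residual degrees of freedom, gave knockout minus wild type per tissue, averages over tissues, each tissue against the mean of the others, and F tests between tissues. Tests were two-sided, and calls used a Benjamini-Hochberg adjusted p under 0.05 over all genes of a contrast. The fit was tested on simulated data. Members, lists and tests were chosen with earlier results of these data known, and several listed genes are not analysed here. The named genes were the members, their measured relatives, partners and chromosomal neighbours, the 3 genes most like each member, per tissue the 3 called interferon-stimulated genes with the largest differences, called ligand, receptor and signal genes (in testis the largest), and others named as chosen later. Symbols and neighbours came from tables of GRCm38.p6, and the promoter sequences from RefSeq. Replicate numbers were not used to pair the arrays in this fit. Same-numbered pairs correlated at -0.277 to 0.399, with 0.1 or less in at least 1 pair of each tissue. With 3 arrays per group these values cannot show whether the numbers mark pairs. Alternatives were other probe sets, normalizations, filters, priors, weights, blocks, tissues fitted alone and arrays left out.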

Additional observations from a re-analysis of the deposited data

Results flagged for a closer look

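The knockout effect on Ifi27 differed between tissues by the limma F test, with an adjusted p of 2.33e-10 over 5 tissues and of 3.03e-08 over liver, muscle, brain and heart. It ran from 0.36 in muscle to 2.69 in heart, and all knockout arrays lay above all wild-type arrays in each tissue. The effect on Ifi27l2a differed between the 5 tissues with a limma adjusted p of 0.00444, from -0.02 in muscle to 3.34 in brain. The F test over 5 tissues was passed by 52.3% of all genes. Over the 4 tissues without testis Ifi27l2a did not pass (limma adjusted p = 0.0656). The calls of Ifi27 in both tests and of Ifi27l2a over 5 tissues held under each alternative that gave them a value. Those included alternatives that left out arrays that stood apart.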

How the results depend on the processing

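Of 2005 comparisons of a member's result with an alternative, 1934 kept direction and side of the threshold. Of the rest 10 lost a call, 45 gained one and 16 turned direction, the last only for differences that no test called. The comparisons took 45 results, many of them without a call to lose, and 30 of the settings left out 1 array each. Leaving out an array of another tissue cannot change the size of a difference within a tissue. The share kept therefore overstates how firm the calls are. Counts of called genes were not among these comparisons, and some of them moved by more than 1.5 times. The cause of a changed call was not tested unless given. With each tissue fitted alone, on fewer degrees of freedom, the differences are the same but the calls of Ifi27 in liver (0.92), Ifitm2 in testis (0.79) and Ifitm3 in testis (1.10) were lost (limma adjusted p = 0.115, 0.163 and 0.0687), and Ifi27l2a passed in testis (0.71) and liver (1.27). Calls over all genes then fell to 31 in liver, 15 in muscle, 25 in brain and 83 in heart, against 413, 263, 71 and 372, and called interferon-stimulated genes to 7 in liver, 6 in muscle and 8 in brain, against 15, 17 and 13. With a replicate block within tissue Ifi27l2a passed in heart (1.88, limma adjusted p = 0.00569) and between 4 tissues (0.00521), and Ifitm3 in brain (1.47) did not (0.068); genes called fell to 137 in muscle and 41 in brain. Same-numbered samples share only a number. Array weights gave passing values for Ifi27l2a in heart (2.04) and between 4 tissues (0.012), Ifitm1 in heart (-0.43), Ifitm2 over 5 tissues (0.38), Ifitm3 in heart (0.85) and between 5 tissues (0.042), turned Ifitm2 in brain to 0.0035, and called 190 genes in brain and 1146 in heart, with 20 interferon-stimulated genes in brain. A second quantile normalization turned Ifi27l2a in muscle to 0.038, Ifitm1 to -0.10 in testis, 0.012 in liver and 0.014 in brain and Ifitm2 in brain to 0.029, passed Ifi27l2a in heart (1.92) and lost Ifitm2 in testis (0.63). Either filter on dim genes, which tests fewer genes, passed Ifi27l2a in heart (1.88) and Ifitm2 over 5 tissues (0.32); both called 46 genes in brain and 1 interferon-stimulated gene lower in testis, against 3, and the filter at the median of overall means called 6393 genes in testis, against 9605. Without testis wild type 3 and muscle wild type 1, Ifi27l2a passed in heart (1.88) and between 4 tissues (0.00901), Ifitm2 over 5 tissues (0.41) and between them (0.00506), and Ifitm3 in heart (0.77) and between 5 tissues (0.000608), and 174 genes were called in muscle. Without those and brain wild type 3 and heart knockouts 2 and 3, Ifi27l2a passed between 4 tissues (0.0197), Ifitm2 over 5 tissues (0.36) and between them (0.00696) and Ifitm3 between them (0.000772), with 182 genes called in heart; without the 2 hearts high in Myl7 145 were called there. With muscle knockout 1 left out as well as those 5 arrays, these passed at 0.0464, 0.38, 0.00992 and 0.00147, with 185 genes called in heart, 173 in muscle and 9 interferon-stimulated genes in muscle.

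With each of 30 arrays left out in turn, Ifi27 kept every call. Ifi27l2a ranged from -0.72 to 0.71 in muscle and from 1.55 to 2.32 in heart, and its adjusted p between 4 tissues from 0.00704 to 0.146. Ifitm1 ranged from -0.031 to 0.093 in testis, -0.15 to 0.082 in liver, -0.13 to 0.043 in brain and -0.54 to -0.28 in heart. Ifitm2 ranged from 0.38 to 1.33 in testis, -0.027 to 0.39 in muscle, -0.078 to 0.053 in brain and 0.23 to 0.43 over 5 tissues, and its adjusted p between them from 0.00447 to 0.832. Ifitm3 ranged from 1.31 to 1.59 in brain and 0.65 to 0.92 in heart, and its adjusted p between 5 tissues from 0.000521 to 0.306. Genes called ranged from 34 to 158 in brain, 198 to 789 in heart and 125 to 315 in muscle.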
